A study of Homo sapiens with 6 samples.

Results

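The transcripts of 10 genes that are regulated by, or feed back on, the RAS to ERK kinase cascade were followed in Jurkat cells after a brief exposure to the chemokine CXCL12. They are the Sprouty genes SPRY1, SPRY2 and SPRY4, the Sprouty-related genes SPRED1, SPRED2 and SPRED3, the ETS transcription factor genes ETV1, ETV4 and ETV5, and ERRFI1. The genes were chosen by symbol, and each was represented by 1 of the 21448 probe sets of the deposited table, which is the one that the platform annotation gives it. The table names 17687 genes in all, of which 13455 were tested. Jurkat is an established cell line from a human T-cell acute lymphoblastic leukaemia (T-ALL), grown in medium with 10% serum. In the CXCL12 group (n = 3), cells deprived of serum for 90 min were given CXCL12 at 100 ng/ml for 15 min. The untreated group (n = 3) was deprived of serum for the same 90 min and received no CXCL12. Each sample was hybridised to 1 Affymetrix array, so the 6 arrays hold 1 value per gene and sample. All of the samples come from this 1 line, and whether the samples called biological replicates were separate cultures is not stated, so the p-values speak of the scatter among these arrays, part of which may be technical.

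When a receptor activates RAS, the kinases RAF, MEK and ERK are switched on in turn, and ERK then acts on transcription factors in the nucleus. Sprouty proteins are induced in many cell types by this cascade and dampen it between the receptor and RAF, and SPRED proteins bring neurofibromin, which inactivates RAS, to the membrane. ETV1, ETV4 and ETV5 form the PEA3 subfamily of ETS factors, whose genes are repressed by the protein CIC until ERK signalling relieves it. ERRFI1, also called MIG6, is an inducible inhibitor of the EGFR family of receptor kinases. CXCL12 acts through CXCR4, a G protein-coupled receptor whose signalling reaches ERK.

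No member passed the threshold of the comparison, and SPRY4 and ETV5 had the highest positive changes of the members that were tested. SPRY4 lay 1.54-fold higher with CXCL12 and ETV5 1.45-fold higher, while ERRFI1 differed little and SPRY1 lay somewhat lower. The count of called members was 0 of 7 tested, against 2 of 16086 probe sets (0.0124%) over the whole table, which were EGR1 and CD69 (limma, Benjamini-Hochberg adjusted p under 0.05). EGR1 was called under all 14 alternative settings, whereas CD69 lost its call in 7 of them, among them removal of any of the CXCL12 arrays or of untreated replicate 2. At an unadjusted limma p under 0.05, the tested members numbered 2, SPRY4 and ETV5, where 4.73% of all tested probe sets reached it in either direction and 2.72% with CXCL12 higher. A log2 change of at least 0.5 with CXCL12 higher was found for 51 of the 16086 probe sets (0.317%), and SPRY4 and ETV5 were among them, 17th and 34th by size. By unadjusted p they stood 48th and 199th.

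Values are log2 signals as the authors deposited them, so a difference of 1 is a doubling. Probe sets with a mean below 4.44 over the 6 arrays, the lower 25% of the table, were left out of the test as dim. The members tested were SPRY1, SPRY4, SPRED1, SPRED2, ETV4, ETV5 and ERRFI1. SPRY2, SPRED3 and ETV1 were left out, and their values are given as levels. The tested member nearest to the limit was SPRY4, with a mean of 5.12, and the nearest one below it was ETV1, with 4.28. Signals of different probe sets depend on their probes, so no gene's level is set against another's. RNA came from whole cultures, so more RNA per cell and more cells with a transcript cannot be told apart.

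**Figure D1:**
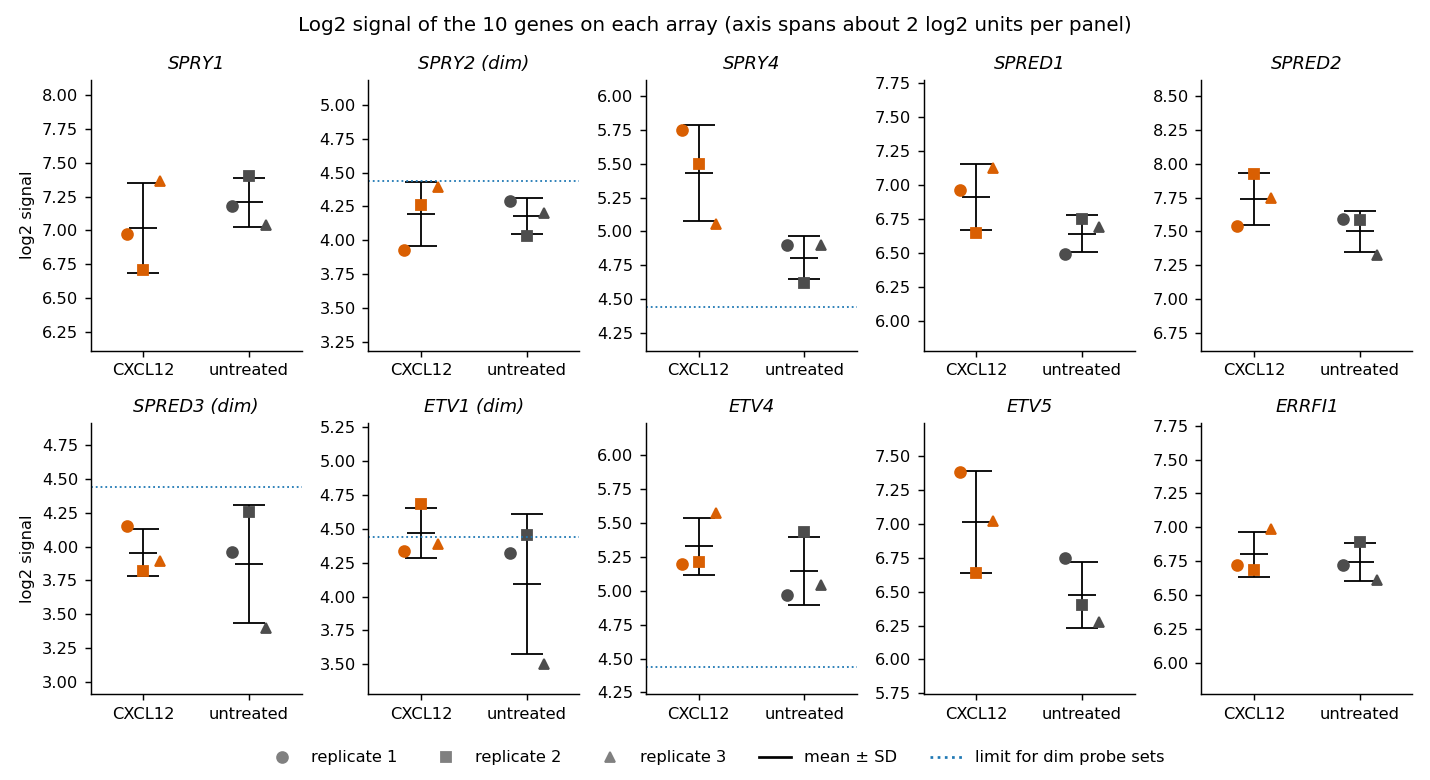
Log2 signal (vertical axis) of each of the 10 genes on the 3 CXCL12 arrays and the 3 untreated arrays, with the mean ± SD of each group and the limit for dim probe sets (4.44) as a dotted line. SPRY4 is the gene whose CXCL12 arrays (5.05 to 5.75) all lie above its untreated arrays (4.62 to 4.90), and SPRY2, SPRED3 and ETV1 have means under the limit.

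Median log2 signals of the arrays over all 21448 probe sets ran from 6.18 to 6.22. Over the tested probe sets, untreated replicate 1 correlated less with the other arrays (mean r 0.982) than the remaining arrays did (0.987 to 0.989). It also lay apart on the first principal component, the axis along which the arrays varied most (38.6% of the variance). Its value there was -27.8, and the other arrays lay between -5.84 and 11.6. All 12 T cell markers listed were above the limit for dim probe sets, with means from 8.26 (CD2) to 11.4 (LCK). Between the groups, 0 of these 12 were called, which does not test T cell identity. Their summed linear signal ran from 12687 to 13654 on the CXCL12 arrays and from 13284 to 13403 on the untreated arrays. Of markers of other cell types, MS4A1 (B cell), LYZ (myeloid), EPCAM and CDH1 (epithelial) were dim. The 10 B cell, myeloid, erythroid and epithelial markers that were tested were above the limit, with means from 4.70 (KRT18) to 7.92 (CD79A). KRT8 had 7.72, PAX5 6.40 and CSF1R 6.10. Of the 10 tested, 0 were called between the groups, which concerns the response to CXCL12 and not their presence. CXCR4 had 10.6 ± 0.17 in CXCL12 arrays and 10.9 ± 0.22 in untreated arrays (SD, n = 3 each), and ACKR3, the other CXCL12 receptor, had 4.74 ± 0.13 in CXCL12 arrays and 4.89 ± 0.33 in untreated arrays (SD, n = 3 each). Neither receptor passed the test (limma adjusted p = 0.996 for each).

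SPRY4 encodes a Sprouty protein that acts as an inducible inhibitor upstream of ERK. Its log2 signal was 5.75, 5.50 and 5.05 on CXCL12 replicates 1, 2 and 3, against 4.90, 4.62 and 4.90 on untreated replicates 1, 2 and 3. All CXCL12 arrays lay above all untreated arrays, and CXCL12 replicate 3 was the nearest to them. The groups averaged 5.43 ± 0.35 with CXCL12 and 4.81 ± 0.16 untreated (SD, n = 3 each), a log2 change of 0.63 (SE 0.17, 95% interval 0.26 to 0.996, limma adjusted p = 0.927 over all probe sets). In linear terms this is 1.54-fold, with an interval from 1.19-fold to 1.995-fold. Such separation of the groups with CXCL12 higher was seen for 813 of the 16086 tested probe sets (5.05%), and SPRY4 was the 1 of the 7 tested members that showed it. Leaving out single arrays gave changes of 0.47 (CXCL12 replicate 1 removed) to 0.82 (CXCL12 replicate 3 removed).

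SPRY1, the Sprouty gene described as a regulator of T cell receptor signalling, had the opposite sign. Its signal was 6.98, 6.71 and 7.37 on CXCL12 replicates 1 to 3, against 7.18, 7.40 and 7.04 on untreated replicates 1 to 3. CXCL12 replicate 2 was the lowest of the 6 arrays, CXCL12 replicate 3 lay among the highest, and the groups overlapped. The log2 change was -0.19 (SE 0.17, 95% interval -0.56 to 0.17, limma adjusted p = 0.996), or 0.875-fold. It was -0.04 without CXCL12 replicate 2 and -0.37 without CXCL12 replicate 3.

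SPRY2, a widely studied Sprouty protein that binds the ubiquitin ligase CBL, was dim on every array. It had 3.93, 4.26 and 4.39 on CXCL12 replicates 1 to 3, against 4.29, 4.03 and 4.20 on untreated replicates 1 to 3. The untreated arrays all lay inside the range of the CXCL12 arrays. The log2 difference was 0.02 (95% interval -0.30 to 0.34 in the fit without a filter), and its sign was not stable. Removing CXCL12 replicate 3, untreated replicate 2 or CXCL12 replicate 2 gave -0.08, -0.06 or -0.02, and removing CXCL12 replicate 1 gave 0.15. The sign also turned with quantile normalization (-0.01), median centring (-0.00451) and cyclic loess (-0.01).

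SPRY4 and SPRY1 had changes of opposite sign, neither of them past the threshold, and the difference between paralogs was tested by itself within each array. The signal of SPRY4 minus that of SPRY1 averaged -1.58 ± 0.63 in CXCL12 arrays and -2.40 ± 0.33 in untreated arrays (SD, n = 3 each). The change of SPRY4 thus exceeded that of SPRY1 by 0.82 on the log2 scale. The exact two-sided permutation test over the arrays gave p = 0.3, or 0.533 after Benjamini-Hochberg adjustment over 4 such pairs. The smallest p that 3 against 3 arrays allow is 0.1, so this test could not pass 0.05. For SPRY4 minus SPRY2, whose probe set is dim, the means were 1.24 ± 0.58 with CXCL12 and 0.63 ± 0.06 untreated (SD, n = 3 each). The difference between the changes was 0.61 (exact permutation p = 0.2, adjusted 0.533), and 0.32 on removal of CXCL12 replicate 1. CXCL12 replicate 3 lay within the untreated range in both comparisons. A different response of SPRY4 from its paralogs was therefore not established with these arrays.

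**Figure D2:**
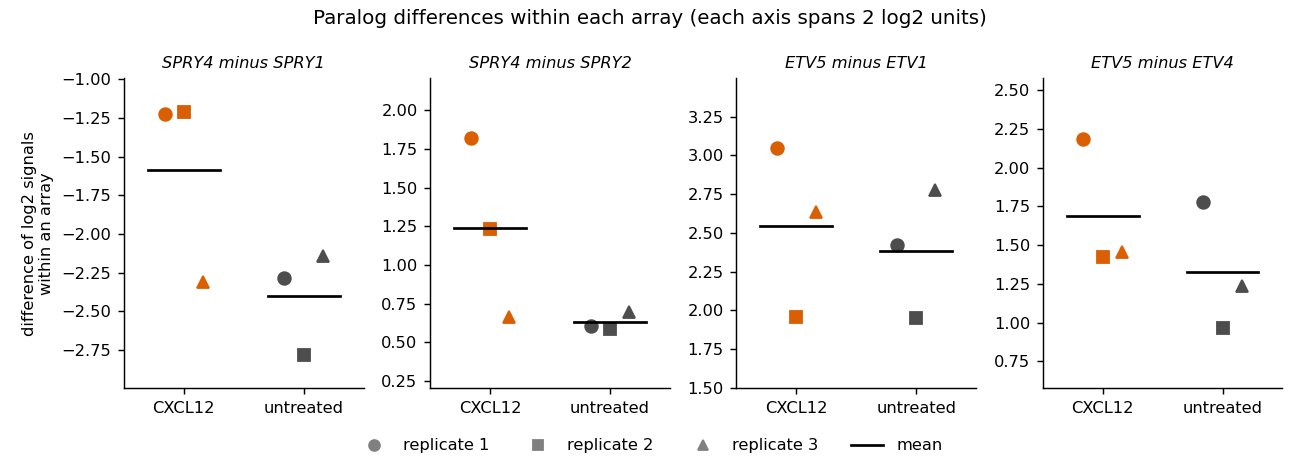
Difference of log2 signals between 2 related genes within an array (vertical axis), for the 3 CXCL12 and the 3 untreated arrays, with group means as bars; the height of a panel depends on the probes, and the shift between groups is the quantity compared. In the panels of SPRY4, CXCL12 replicates 1 and 2 lie above the untreated arrays and CXCL12 replicate 3 does not lie above all of them.

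Promoter windows were taken from RefSeq (build GRCh38.p14) by gene symbol for 8 of the 10 members, which gave 18 windows of 300 bases, from 250 before to 50 after an annotated start. ETV4 and ETV5 were not matched. The 250 bases before the start are printed 5′ to 3′ on the gene's strand for SPRY4, the member with the largest change, for the most upstream start of its paralog SPRY1, and for EGR1, the ERK-responsive gene that passed the test. They are chr5:142324248-142324497 on the minus strand, chr4:123396545-123396794 on the plus strand and chr5:138465229-138465478 on the plus strand. Capitals mark the ETS core GGAA on either strand and, in EGR1, the CArG box bound by serum response factor.
SPRY4: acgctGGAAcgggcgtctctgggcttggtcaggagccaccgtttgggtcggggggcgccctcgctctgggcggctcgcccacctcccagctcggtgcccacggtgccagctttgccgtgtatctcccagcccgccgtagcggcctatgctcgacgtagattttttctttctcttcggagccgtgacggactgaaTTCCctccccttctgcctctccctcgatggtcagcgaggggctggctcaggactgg
SPRY1: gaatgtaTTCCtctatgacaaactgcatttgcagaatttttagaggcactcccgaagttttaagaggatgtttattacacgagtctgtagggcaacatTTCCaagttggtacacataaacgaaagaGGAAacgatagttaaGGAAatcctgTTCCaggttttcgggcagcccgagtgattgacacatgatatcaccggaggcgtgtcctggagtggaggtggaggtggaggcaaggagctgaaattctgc
EGR1: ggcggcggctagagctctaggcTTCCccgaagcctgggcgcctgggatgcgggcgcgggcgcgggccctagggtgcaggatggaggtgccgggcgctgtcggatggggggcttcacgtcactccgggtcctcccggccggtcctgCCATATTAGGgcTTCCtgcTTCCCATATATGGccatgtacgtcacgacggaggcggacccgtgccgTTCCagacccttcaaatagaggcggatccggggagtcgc

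The ETS core GGAA occurred 4 times in the 300-base window of SPRY4, 5 times in that of SPRY1 and 4 times in that of EGR1, and 95.5% of all 35116 windows held it at least once. The CArG box occurred at positions -105 and -83 of EGR1, counted from the start to the first base of the match, where 1.29% of all windows held one, and in none of the 18 windows of the members. The second box overlaps an ETS core, so they run together in the capitals. The longer ETS site CCGGAAGT (4.14% of windows) and the CRE TGACGTCA (1.85%) were in none of the windows of the members, EGR1 or DUSP6. CIC is known to bind an octamer that occurs in variants. Of these, TGAATGAA (1.65% of windows) was at -192 of the downstream window of SPRED3, and TGAATGGA (1.03%) was at -125 of the most upstream window of ETV1. TCAATGGA (0.51%) was at -24 and at 2 of DUSP6, and TCAATGAA (0.718%) was in none of them. The AP-1 site TGACTCA (4.95%) was in a downstream window each of SPRED2 and SPRED3. Both strands were searched, and the variants ending in GGA were added after the first search. A match is a string of letters in this window, and no binding was measured.

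The SPRED genes, whose proteins bind neurofibromin, were measured for SPRED1 and SPRED2 and dim for SPRED3. SPRED1 had 6.97, 6.65 and 7.12 on CXCL12 replicates 1 to 3, against 6.49, 6.75 and 6.69 on untreated replicates 1 to 3. CXCL12 replicates 1 and 3 were above every untreated array, and CXCL12 replicate 2 was within the untreated range. The log2 change was 0.27 (SE 0.14, 95% interval -0.04 to 0.59, limma adjusted p = 0.996), and removing CXCL12 replicate 3 or CXCL12 replicate 2 brought it to 0.17 or 0.40.

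SPRED2 had 7.54, 7.93 and 7.75 on CXCL12 replicates 1 to 3, against 7.59, 7.59 and 7.32 on untreated replicates 1 to 3. Here CXCL12 replicates 2 and 3 were above every untreated array and CXCL12 replicate 1 was not. The log2 change was 0.24 (SE 0.14, 95% interval -0.06 to 0.54, limma adjusted p = 0.996), which became 0.14 and 0.15 on removal of CXCL12 replicate 2 or untreated replicate 3, and 0.34 on removal of CXCL12 replicate 1. The array that fell among the untreated ones was therefore a different one for SPRED1 and SPRED2.

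SPRED3 was under the limit on all 6 arrays, at 4.15, 3.82 and 3.89 on CXCL12 replicates 1 to 3, against 3.96, 4.25 and 3.40 on untreated replicates 1 to 3. The CXCL12 arrays all fell inside the untreated range. The log2 difference was 0.09 (95% interval -0.33 to 0.51 in the fit without a filter). It turned to -0.15 on removal of untreated replicate 3 and to -0.01 on removal of CXCL12 replicate 1, and was 0.28 on removal of untreated replicate 2.

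ETV5, an ETS factor known as an output of ERK signalling, had 7.39, 6.64 and 7.02 on CXCL12 replicates 1 to 3, against 6.75, 6.40 and 6.28 on untreated replicates 1 to 3. CXCL12 replicates 1 and 3 were above all untreated arrays, while CXCL12 replicate 2 was below untreated replicate 1, so the groups overlapped. The means were 7.02 ± 0.37 with CXCL12 and 6.48 ± 0.24 untreated (SD, n = 3 each), a log2 change of 0.54 (SE 0.19, 95% interval 0.14 to 0.94, limma adjusted p = 0.996). The linear change was 1.45-fold, with an interval from 1.10-fold to 1.92-fold. The value depended on single arrays, and removing CXCL12 replicate 1, untreated replicate 1 or CXCL12 replicate 2 gave 0.35, 0.67 or 0.73.

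ETV4, another PEA3 factor, had 5.20, 5.22 and 5.57 on CXCL12 replicates 1 to 3, against 4.97, 5.44 and 5.04 on untreated replicates 1 to 3. Untreated replicate 2 was higher than all but CXCL12 replicate 3, and the groups overlapped. The log2 change was 0.18 (SE 0.16, 95% interval -0.16 to 0.52, limma adjusted p = 0.996), and removing CXCL12 replicate 3, untreated replicate 1 or untreated replicate 2 gave 0.06, 0.09 or 0.32.

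ETV1, the remaining PEA3 factor, had a mean under the limit, with 2 of its 6 arrays above it. Its signal was 4.34, 4.68 and 4.39 on CXCL12 replicates 1 to 3, against 4.32, 4.46 and 3.51 on untreated replicates 1 to 3. Untreated replicate 3 stood well below the other arrays, and without it the log2 difference of 0.38 (95% interval -0.09 to 0.84 in the fit without a filter) was 0.08.

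The change of ETV5 was set against those of the other PEA3 genes within each array. ETV5 minus ETV4 averaged 1.69 ± 0.43 in CXCL12 arrays and 1.33 ± 0.41 in untreated arrays (SD, n = 3 each), a difference of 0.36 between the changes (exact two-sided permutation p = 0.4, adjusted 0.533). Removing CXCL12 replicate 1, untreated replicate 2 or untreated replicate 1 brought it to 0.11, 0.18 or 0.58. ETV5 minus the dim ETV1 averaged 2.55 ± 0.55 with CXCL12 and 2.38 ± 0.41 untreated (SD, n = 3 each), a difference of 0.16 (exact permutation p = 0.7, adjusted 0.7). It was -0.09 on removal of CXCL12 replicate 1 and -0.05 on removal of untreated replicate 2. The arrays of the groups overlapped in both comparisons, and the permutation test could not give a p below 0.1 here either. A larger change of ETV5 than of its relatives was therefore not established.

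ERRFI1, the EGFR family inhibitor, had 6.72, 6.69 and 6.99 on CXCL12 replicates 1 to 3, against 6.72, 6.89 and 6.61 on untreated replicates 1 to 3. The groups overlapped, and CXCL12 replicate 3 was the highest array. The log2 change was 0.06 (SE 0.13, 95% interval -0.23 to 0.35, limma adjusted p = 0.996), or 1.04-fold, with a changed sign without CXCL12 replicate 3 (-0.04) or untreated replicate 3 (-0.00692). Of the receptors of that family, EGFR and ERBB3 were dim, and ERBB4 had a change of -0.00058. ERBB2 had no named probe set here and was not analysed.

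**Figure D3:**
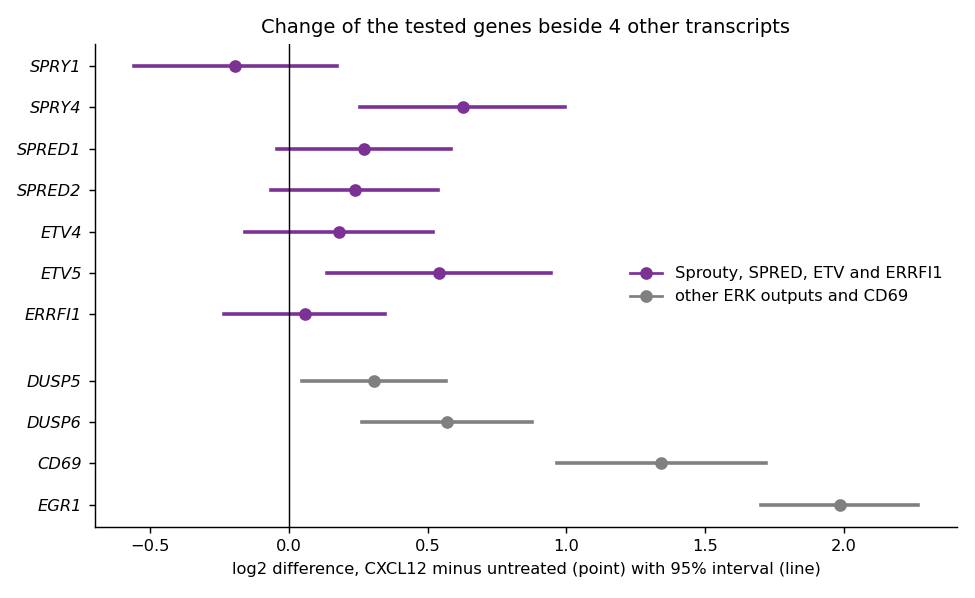
Log2 difference, CXCL12 minus untreated, with its 95% interval from limma (horizontal axis) for the 7 tested members and, in grey, for DUSP5, DUSP6, CD69 and EGR1. The intervals of SPRY4 (0.26 to 0.996) and ETV5 (0.14 to 0.94) lie above 0 before adjustment, those of the other 5 members include 0, and EGR1 and CD69 lie farther to the right.

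Changes were positive for 6 of the 7 tested members and negative for SPRY1, where 50.7% of all tested probe sets were positive. Their median log2 change was 0.24, against 0.00228 for all tested probe sets, and 0.21 when the dim members were counted too. For SPRY1, SPRED2, ETV4 and ERRFI1, both ends of the 95% interval were less than 1.5-fold from no change. For SPRY4, SPRED1 and ETV5, it reached beyond 1.5-fold higher. Relative to the untreated mean, the median member lay at 0.05, 0.07 and 0.25 on CXCL12 replicates 1, 2 and 3, against -0.02, 0.11 and -0.13 on untreated replicates 1, 2 and 3. CXCL12 replicates 1 and 2 thus lay below untreated replicate 2 by this measure. The members did not share 1 array that was high throughout, since SPRY4 and ETV5 were highest on CXCL12 replicate 1, SPRED2 on CXCL12 replicate 2, and SPRED1, ETV4 and ERRFI1 on CXCL12 replicate 3.

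**Figure D4:**
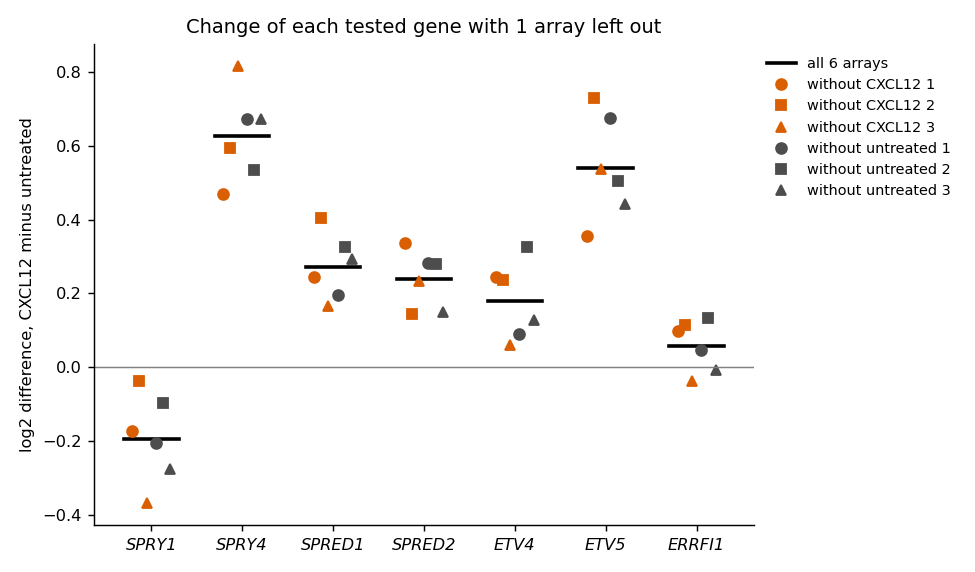
Log2 difference, CXCL12 minus untreated (vertical axis), of the 7 tested members with all 6 arrays (bar) and with each array left out (points). SPRY4 stays between 0.47 and 0.82 and ETV5 between 0.35 and 0.73, while ERRFI1 crosses 0.

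EGR1 and the DUSP phosphatases, other transcripts known to be induced by ERK, gave a scale for the members. EGR1, an immediate early transcription factor, had 8.13, 7.80 and 7.98 on CXCL12 replicates 1 to 3, against 5.94, 5.91 and 6.12 on untreated replicates 1 to 3, and it rose by 1.98 on the log2 scale (SE 0.13, limma adjusted p = 4.52e-05). DUSP6, which dephosphorylates ERK in the cytoplasm, had 5.71, 5.22 and 5.51 on CXCL12 replicates 1 to 3, against 4.88, 4.98 and 4.87 on untreated replicates 1 to 3. Its change was 0.57 (SE 0.14, limma adjusted p = 0.829), beside 0.63 for SPRY4 and 0.54 for ETV5, and its arrays did not overlap. EGR1, DUSP6, DUSP5 and ETV5 were each highest on CXCL12 replicate 1 and lowest, among the CXCL12 arrays, on replicate 2. SPRY4 was lowest on replicate 3, as were the ERK outputs DUSP4 and IER3. With 3 arrays few orders are possible, and whether an order is shared beyond the scatter was not tested.

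Of 12 other ERK outputs listed, 11 were tested, 1 rose (EGR1), 0 fell and 10 did not pass. Their changes ran from -0.30 to 1.98 with a median of 0.25. DUSP5, the nuclear ERK phosphatase, had 0.31 (limma adjusted p = 0.996), and its arrays did not overlap either, with 5.72 to 5.94 with CXCL12 and 5.52 to 5.59 untreated. The gene of that list at the lower end was MYC, with -0.30. In the list, all CXCL12 arrays lay above all untreated arrays for 4 genes (EGR1, DUSP6, DUSP5 and IER3) and below them for 2 (MYC and FOS). For FOS the gap was slight, with 6.354 to 6.427 with CXCL12 and 6.432 to 6.518 untreated. Its change was -0.07 (SE 0.11, limma adjusted p = 0.996), so a fall of FOS was not established. Over all tested probe sets, 5.05% were separated with CXCL12 higher and 4.48% with CXCL12 lower.

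No listed gene of the RAS to ERK cascade or of its regulators passed the test at the transcript level. The list of 21 genes held, besides the cascade from RAS to ERK, exchange factors and other regulators such as NF1, which encodes neurofibromin. Of these, 15 were tested, with 0 called, 6 positive and 9 negative changes, a median of -0.01 and a range from -0.42 to 0.25. The gene with the smallest p was RASGRP1, a RAS exchange factor of T cells, with 8.36 ± 0.06 in CXCL12 and 8.70 ± 0.11 in untreated arrays (SD, n = 3 each), a change of -0.34 (limma adjusted p = 0.996). A further 6 listed genes had no named probe set here and were not analysed.

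Of 8 tested Sprouty partners, such as the ubiquitin ligases CBL and SIAH2, 0 were called, and the changes ran from -0.32 (SIAH2) to 0.14. Of 20 tested ETS factors outside the PEA3 subfamily, 0 were called, 7 were positive and 13 negative, with a median of -0.08. ETV6, a repressor of the ETS family, had the smallest p among them, with a change of -0.48 (limma adjusted p = 0.996). CIC and the other 4 genes listed for the control of PEA3 factors had changes between -0.03 and 0.21, the highest being that of CIC, with 0 called. Of 5 tested receptor tyrosine kinases, 0 were called, and the changes ran from -0.17 to 0.25, with FGFR1 at 0.25.

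**Figure D5:**
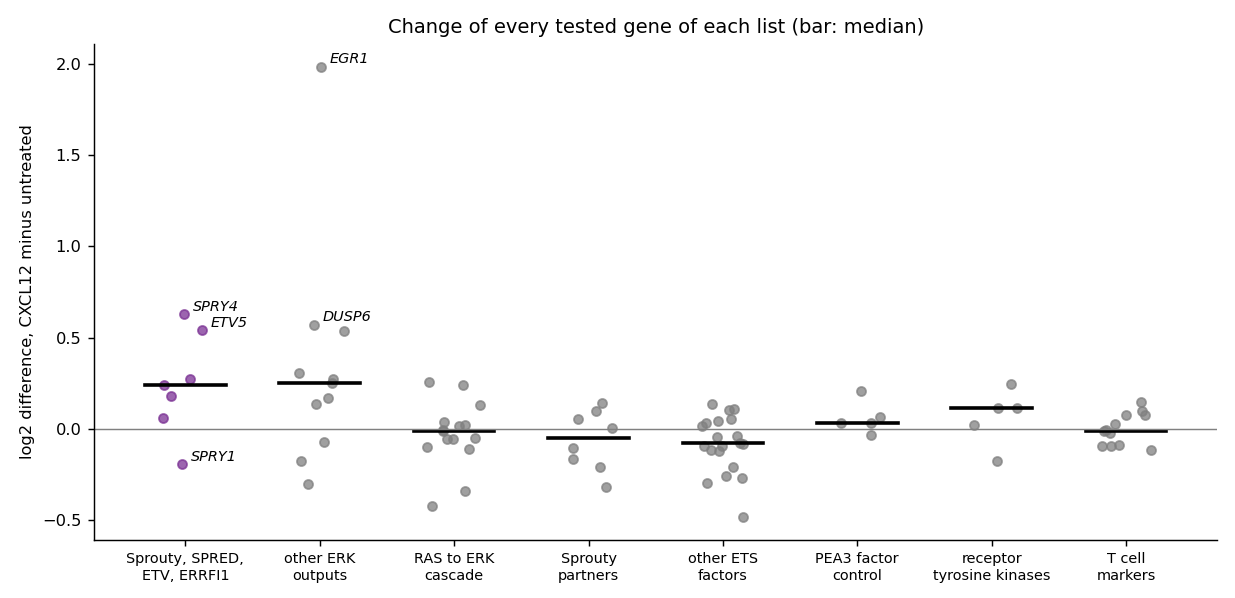
Log2 difference, CXCL12 minus untreated (vertical axis), of every tested gene of the members and of 7 other lists, with the median of each list as a bar. The medians are 0.24 for the members and 0.25 for the other ERK outputs, and lie between -0.08 and 0.11 for the other 6 lists drawn. Not drawn are the ERBB receptors (1 tested gene, -0.00058) and 4 marker lists. Their medians are 0.07 for B cell (2 tested genes), -0.01 for myeloid (4), 0.20 for erythroid (2) and 0.19 for epithelial markers (2).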

How the data were processed

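RNA of 3 CXCL12 and 3 untreated samples was measured on 1 array each. The authors deposited log2 values, 1 per probe set and array; the submitters' processing notes name RMA and the Transcriptome Analysis Console. The sources used here give no version, setting or genome build. RMA shares information between arrays and compresses small signals, so changes of dim genes may be understated. Scanner files, detection calls and scan batches were not analysed here. The table holds 21448 probe sets, of which 17709 have 1 symbol in the platform annotation, 0 have several and 3739 are unnamed here.

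A two-sided test without covariates was run with limma 3.58.1 (lmFit, eBayes; R 4.3.3) on the 16086 probe sets whose mean reached the 25th percentile, with Benjamini-Hochberg adjustment over all of them and a threshold of 0.05. It was tested on simulated data. Paralogs were compared by exact permutation over arrays. Intervals are 95% limma intervals, and the number of arrays limits the precision. Groups share replicate numbers, but no pairing is stated and same-numbered deviations from the group means correlated at -0.19, -0.11 and 0.11, so no block was used.

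The members, the lists and the tests were chosen with earlier results of these data known. All members are named. Further genes named are the called genes, DUSP5, DUSP6, the 2 receptors, each list's gene with the smallest p and the 3 probe sets most like SPRY4 and ETV5; any others were picked with their values in view. Alternatives tried were other dim filters, renormalization, array weights, a replicate block, a prior with trend and robust settings, and fits with 1 array left out.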

Additional observations from a re-analysis of the deposited data

How the results depend on the processing

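The count of 0 called members was the same under all 14 alternatives, with a smallest limma adjusted p of any member between 0.431 (ETV5, array weights) and 0.99997 (SPRY4, without CXCL12 replicate 1). The number of all probe sets called was 2, but 1 without a filter, with median centring, with cyclic loess and without CXCL12 replicate 1, 2 or 3 or untreated replicate 2, 3 under the trended robust prior and under the filter on the lower 50%, and 4 with array weights. EGR1 was called in all 14 alternatives and CD69 in 7, and CD69 was the call lost wherever the number was 1. The median of the tested members ran from 0.15 to 0.32 when single arrays were left out and from 0.21 to 0.25 under the other alternatives. SPRY4, ETV5, SPRED1, SPRED2, ETV4 and SPRY1 kept their sign wherever they were tested; the filter on the lower 50% removed SPRY4 and ETV4. ERRFI1 turned to -0.0379 without CXCL12 replicate 3 and -0.00692 without untreated replicate 3, and reached 0.133 at most. ETV5 minus ETV1 turned to -0.0861 without CXCL12 replicate 1 and -0.0529 without untreated replicate 2, and ran up to 0.459. The replicate block left 2 probe sets and 0 members called, and gave SPRY4 an adjusted p of 0.999 in place of 0.927. CXCL12 replicates 1 and 2 correlated better with an untreated array of another number than with their own, which does not settle a pairing. Averaging probe sets was not run, because each member has 1. The cause of these shifts was not tested. Across tested probe sets, unadjusted 95% intervals reached 0.29 (median) to either side, so changes under that size are hard to resolve. After adjustment over all tested probe sets, larger changes were not called either, such as 0.63 for SPRY4, 0.57 for DUSP6 and 0.54 for ETV5. The 0.29 is therefore not the size from which a change would be called.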

Other observations

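The genes whose signal over the 6 arrays was most like that of SPRY4 and of ETV5 were looked up among 13468 other named probe sets that were tested, by Pearson's r as a description. For SPRY4 they were CCND2 (r = 0.991), a D-type cyclin, PRSS12 (0.979), a serine protease, and QRFP (0.973), a neuropeptide precursor. For ETV5 they were PRR27 (r = 0.993), GNG13 (0.988), a G protein gamma subunit, and CAMKK1 (0.988), a calcium- and calmodulin-dependent kinase kinase. None of these was called between the groups, with log2 changes from 0.14 to 0.39 and a limma adjusted p of 0.996 for each. Of the probe sets compared, 76 had an r over 0.9 with SPRY4 and 67 with ETV5. With 6 arrays and this many probe sets searched, high r values can arise by chance, and this was not tested.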
